A study of Rattus norvegicus with 6 samples.

Results

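The genes described here encode parts of the basement membrane and the matrix, the cell surface receptors that bind them, the enzymes that cross-link or cleave them, protease inhibitors, and adhesion molecules of cell junctions. They are all genes on the array whose symbol in the platform annotation fell in the laminin, nidogen, integrin, ADAM, syndecan, glypican, fibulin, fibrillin, lysyl oxidase, cadherin, protocadherin, claudin, collagen, MMP, TIMP or serpin families. The pattern also covered thrombospondins, tenascin C, biglycan, lumican, fibromodulin, versican and osteopontin, for which no symbol was found among the named genes. It matched 38 of 3158 named genes, of which 32 are described and 6 (Col1a1, Col1a2, Col3a1, Col6a2, Cdh3 and Mmp23) were left out by name.

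RNA came from JA, JB and Amy, 3 rat esophageal tumor cell lines that reflux (backflow of stomach contents) had induced, and from a control pool that mixed 2 normal rat esophageal cell lines in equal parts. Every tumor line was hybridized together with this pool on 2 cDNA arrays, once labelled with Cy3 and once with Cy5. The 2 arrays of a line are therefore a technical dye swap of 1 line against 1 pool, so precision rests on 3 lines. The labels used here give no strain, passage, or tumor stage, and each line is one culture-derived model. The values are log2 ratios, written as tumor line over pool. The titles name the line first, which makes this direction likely but does not settle it: if it were the other way, higher and lower would exchange throughout.

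Basement membranes are thin sheets of laminin, type IV collagen, nidogen and heparan sulfate proteoglycan on which epithelial cells sit. Integrins, pairs of an alpha and a beta chain, bind laminin and other matrix proteins on the outside of the cell and the actin cytoskeleton inside, while syndecans and glypicans carry heparan sulfate chains that hold growth factors. Secreted and membrane-bound metalloproteases cut matrix and surface proteins and are blocked by the TIMPs, and serpins block mainly serine proteases. In the esophagus this apparatus lies between the stratified epithelium and the connective tissue beneath it.

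The 3 tumor lines shared lower ratios of several matrix assembly genes and of the metalloprotease genes Adam19 and Mmp11, while Mmp13 did not pass. Of the 3 TIMP genes, Timp2 and Timp3 were higher and Timp1 did not pass. The metalloprotease inhibitor Reck, outside the 32 genes, was lower at -4.20. The lysyl oxidase relatives Loxl1 and Loxl2, the proteoglycans Sdc2 and Gpc3, the collagen chains Col14a1 and Col5a1, the protease genes Adam19 and Mmp11, and Adamtsl4 were lower in every line, by 2.53-fold to 11.3-fold in the mean. Timp2 and Timp3, the serpin Serpinb9 and the cadherin Cdh13 were higher in every line, by 1.96-fold to 2.47-fold. JB stood apart from JA and Amy in 4 genes, with Nid2 and Cldn1 higher and Sdc2 and Fbn1 lower. A test of the mean of the 3 lines against 0 (limma, fitted to all 7180 features of the array, adjusted p under 0.05) called 22 of the 32 genes, 7 higher and 15 lower. Of all features on the array 53.5% were called, 20.7% higher and 32.8% lower, with 23.1% and 32% for the named genes alone. The median of the 32 means was -0.37, against -0.12 for all features. Of the 32 genes, 10 were called with a mean of -1 or lower and 3 with a mean of 1 or higher. Over all features these shares were 14.8% and 7.17%. In 21 of the 32 genes 1 sign was kept on all 6 arrays, against 55.9% of features. The pool enters as 1 sample without a spread of its own. An alternative that lets the pool vary as the average of 2 lines called 3 higher and 9 lower. Without JA, 4 were higher and 11 lower, and without Amy 5 and 10. The shares of all features called under these alternatives were not computed, so the shares above do not apply to these counts.

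The upstream sequences of 4 of these genes are shown because they come from the sets that moved in opposite directions, the lower cross-linking enzyme Loxl1 and metalloprotease Mmp11 and the higher inhibitors Timp2 and Timp3. Each is the 250 bases before the RefSeq start of the gene in assembly GRCr8, printed 5′ to 3′ on the strand of the gene. Capitals mark GC boxes, GGGCGG on either strand, the motif bound by Sp1 and related factors.
Loxl1, chr8:67612225-67612474, minus strand: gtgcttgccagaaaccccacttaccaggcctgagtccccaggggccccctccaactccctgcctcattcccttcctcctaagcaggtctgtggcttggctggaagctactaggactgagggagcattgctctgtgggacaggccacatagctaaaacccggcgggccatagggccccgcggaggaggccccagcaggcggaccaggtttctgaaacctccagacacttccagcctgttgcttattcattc
Mmp11, chr20:12730034-12730283, plus strand: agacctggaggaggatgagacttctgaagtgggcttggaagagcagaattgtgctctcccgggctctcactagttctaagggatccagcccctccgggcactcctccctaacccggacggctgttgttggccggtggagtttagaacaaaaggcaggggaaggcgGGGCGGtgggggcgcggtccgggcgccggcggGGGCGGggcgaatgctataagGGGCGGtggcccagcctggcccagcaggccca
Timp2, chr10:104089215-104089464, minus strand: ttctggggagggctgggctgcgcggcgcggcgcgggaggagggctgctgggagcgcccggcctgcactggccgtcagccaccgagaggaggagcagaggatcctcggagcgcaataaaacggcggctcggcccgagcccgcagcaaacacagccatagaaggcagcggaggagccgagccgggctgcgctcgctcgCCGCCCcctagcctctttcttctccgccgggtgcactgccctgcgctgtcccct
Timp3, chr7:19459559-19459808, minus strand: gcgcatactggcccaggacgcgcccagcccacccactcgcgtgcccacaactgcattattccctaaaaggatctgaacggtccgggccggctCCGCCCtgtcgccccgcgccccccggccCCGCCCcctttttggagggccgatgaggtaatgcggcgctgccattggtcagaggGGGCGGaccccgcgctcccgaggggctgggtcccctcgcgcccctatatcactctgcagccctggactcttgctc
The windows of Mmp11 and Timp3 held 3 GC boxes each, that of Timp2 held 1 and that of Loxl1 held none, so the motif was found on both sides of the contrast. Of the 26 described genes with an entry in the promoter table, 17 (65.4%) had a GC box in this window, against 38.9% of 21842 protein-coding genes and 30.5% of all 33469 promoters. The median GC content was 63.0% for the described genes and 54.0% for protein-coding genes. The other motifs searched were the AP-1 site TGANTCA and the E-box CACCTG on both strands, which overlap where an E-box ends in the first bases of an AP-1 site, and TATAAA on the strand of the gene. They were found in 2, 4 and 1 of the 26 windows, or 7.69%, 15.4% and 3.85%, against 5.69%, 16.0% and 7.87% of protein-coding genes. These matches describe letters only.

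**Figure D1:**
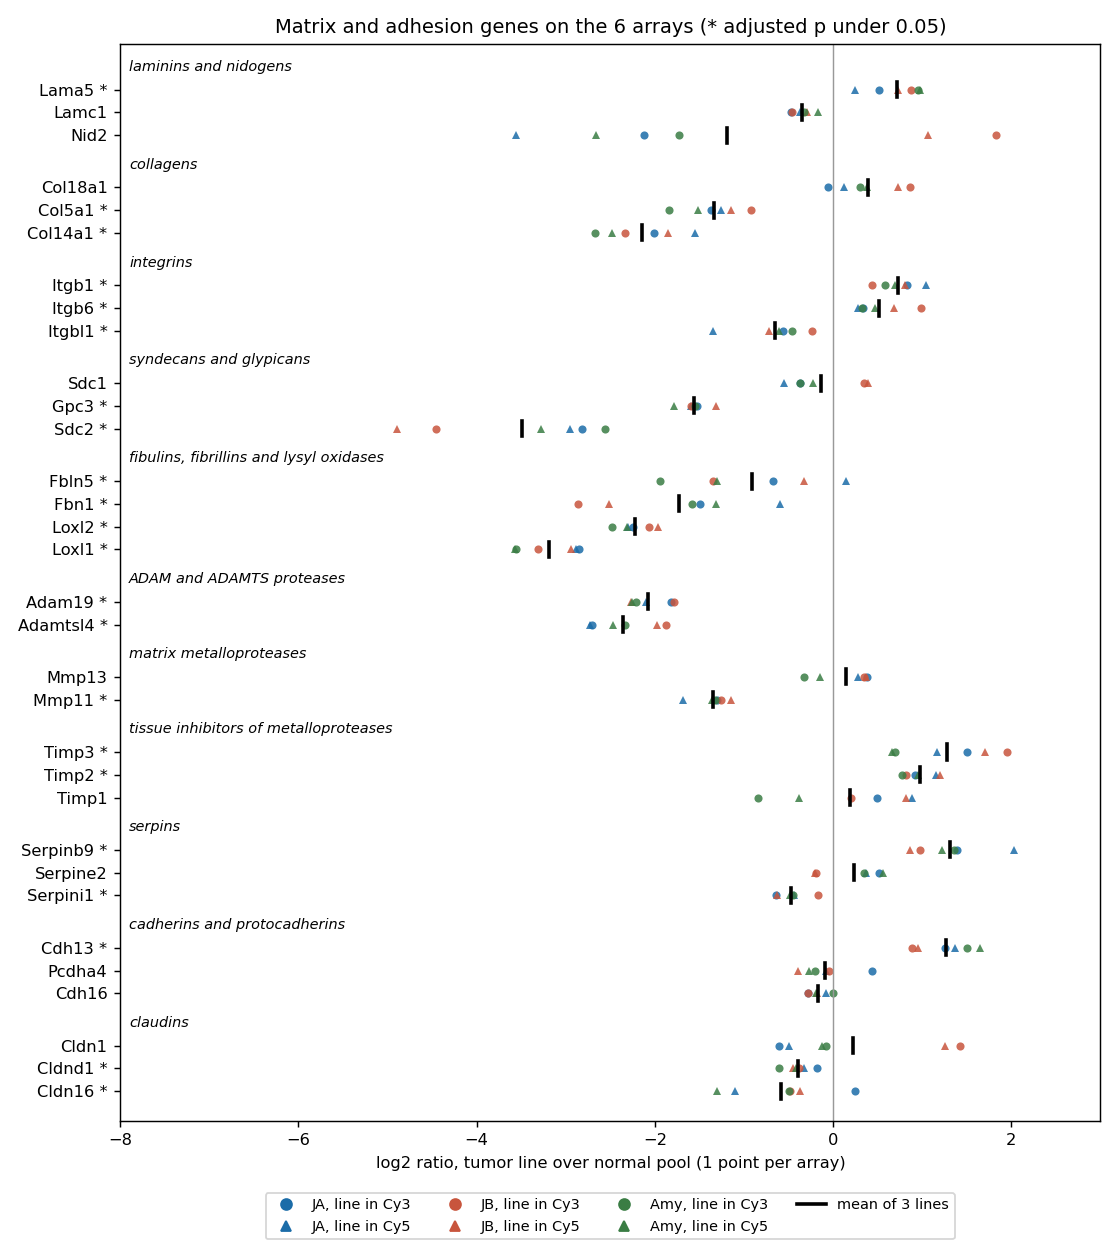
Log2 ratio of tumor line over normal pool (horizontal axis) for the 32 genes, grouped by family; each point is 1 array, colour gives the line, shape the dye of the line, the black bar the mean of the 3 lines, and a star an adjusted p under 0.05. Loxl1, Loxl2, Adam19 and Gpc3 lie below 0 on every array with little spread, Timp2 and Timp3 lie above 0 on every array, and the JB points of Nid2 lie at 1.07 and 1.83 while the other points of that gene lie below -1.7.

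Among the basement membrane genes, Nid2 showed the widest spread of the 32. It encodes nidogen-2, a linker between laminin and type IV collagen networks. Its log2 ratio was -2.12 with JA in Cy3 and -3.56 in Cy5, -1.73 and -2.66 for Amy, and 1.83 and 1.07 for JB. JB was thus high on both arrays while JA and Amy were low on both. The mean of the 3 lines was -1.20 ± 2.31 (SD, n = 3 lines; 95% interval -3.33 to 0.94) and did not pass (adjusted p = 0.276). Without JB the mean of the other 2 lines was -2.52 and passed (adjusted p = 2.45e-04). That fit rests on 2 lines left after the line of opposite sign was taken out, so no conclusion is drawn from it. The mean was -0.37 without JA and -0.70 without Amy, and neither passed. The 2 spots of its single clone lay close together on each array, such as 1.84 and 1.82 for JB in Cy3 and -1.94 and -2.30 for JA in Cy3.

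The laminin chain genes showed smaller ratios. Lama5, the laminin alpha-5 chain of epithelial basement membranes, was 0.52 in JA labelled with Cy3 and 0.24 in JA labelled with Cy5. In the same order it was 0.88 and 0.73 in JB and 0.95 and 0.97 in Amy, the order kept in all pairs of values that follow. All 6 arrays were above 0, with the lowest values in JA. Its mean of 0.71 ± 0.30 passed (adjusted p = 0.0144), and the call was lost without Amy (adjusted p = 0.0758). Lamc1, the gamma-1 chain that most laminins contain, was below 0 on every array, between -0.47 and -0.17, with a mean of -0.35 ± 0.09 and an adjusted p of 0.0518. It passed with the dye orientation as a block (adjusted p = 0.0228). Of its 5 clones, 4 had means between -0.85 and -0.47 and 1 had a mean of 0.63 ± 0.16, so the clones did not share a sign. With the median over clones in place of the mean, Lamc1 was -0.53 (adjusted p = 0.0210).

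Of the 3 collagens, 2 were lower and 1 did not pass. Col14a1, a collagen that sits on the surface of collagen fibrils, was -2.01 and -1.55 on the JA arrays, -2.33 and -1.86 on the JB arrays and -2.67 and -2.48 on the Amy arrays. Every array was low, and Amy was lowest in both dye orientations. Its mean was -2.15 ± 0.40 (adjusted p = 9.35e-04). Col5a1, a chain of the type V collagen that starts fibril assembly, lay between -1.84 and -0.92 on the 6 arrays, with a mean of -1.34 ± 0.32 (adjusted p = 0.00248). Its 2 clones stood at -0.59 and -2.10, a gap that the SD over lines leaves out. With the first clone alone the change was -0.59, and it still passed. Col18a1, the basement membrane collagen from which endostatin is released, was near 0 in JA (-0.06 and 0.12), 0.86 and 0.72 in JB and 0.30 and 0.38 in Amy. Its mean of 0.39 ± 0.38 did not pass (adjusted p = 0.120; 95% interval -0.06 to 0.84). In a fit of the 6 arrays with line as a random block it passed (adjusted p = 0.0476), which made 8 genes higher, and with the dye orientation as a block in addition it did not (0.0774).

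The genes of elastic fibres and cross-linking were all lower. Loxl1 and Loxl2 encode copper enzymes that oxidize lysines so that elastin and collagen fibres can be cross-linked. Loxl1 was -2.86 and -2.88 on the JA arrays, -3.31 and -2.94 on the JB arrays and -3.55 and -3.57 on the Amy arrays. The dye made little difference, and Amy was the lowest line. The mean was -3.19 ± 0.35, or 9.10-fold lower (adjusted p = 2.39e-04). Loxl2 lay between -2.48 and -1.96 on the 6 arrays with a mean of -2.23 ± 0.20 (adjusted p = 3.21e-04). Amy was lowest with the lines in Cy3, by margins within 1 on the log2 scale. With the lines in Cy5 its difference from JA was -0.01, while the 2 spots of the clone differed by up to 0.33, so Amy and JA were not separated there.

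Fbn1 encodes fibrillin-1, the main protein of the microfibrils around elastin. It was -1.50 and -0.59 on the JA arrays, -2.86 and -2.51 on the JB arrays and -1.59 and -1.31 on the Amy arrays, so that JB lay below every array of the other lines. The mean was -1.73 ± 0.85 (adjusted p = 0.00944), and the call was lost with a spread for the pool (adjusted p = 0.0628). Fbln5, an organizer of elastic fibres, had a mean of -0.91 ± 0.68 (adjusted p = 0.0378), but this value is poorly measured. The spots of its second clone disagreed, at 3.31 and -1.67 for JA in Cy5 and at -2.74 and -0.41 for JB in Cy3. Its first clone was lower on every array with a mean of -0.80 ± 0.34. The call of the gene was lost without Amy (adjusted p = 0.112), on the 3 arrays that carried the line in Cy5 (0.212), without the Cy3 array of JA (0.117) or of JB (0.0887), and with arrays centred on the median (0.0589).

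Among the cell surface proteoglycans, syndecan-2 (Sdc2) had the lowest mean of all 32 genes. Sdc2 is the syndecan typical of mesenchymal cells. Its ratio was -2.82 and -2.95 on the JA arrays, -4.45 and -4.89 on the JB arrays and -2.56 and -3.28 on the Amy arrays. All arrays were far below 0 and the JB arrays were lowest. The mean was -3.49 ± 1.02, or 11.3-fold lower (adjusted p = 0.00194). Glypican-3 (Gpc3), a membrane-anchored heparan sulfate proteoglycan that modulates growth factor signals, was -1.52 and -1.59 on the JA arrays, -1.60 and -1.31 on the JB arrays and -1.55 and -1.79 on the Amy arrays. The lines did not separate, and the mean was -1.56 ± 0.11 (adjusted p = 6.66e-04). Syndecan-1 (Sdc1), the main syndecan of epithelia, was -0.38 and -0.55 on the JA arrays, 0.34 and 0.40 on the JB arrays and -0.37 and -0.23 on the Amy arrays. Its mean of -0.13 ± 0.44 did not pass (adjusted p = 0.594; 95% interval -0.62 to 0.36). JB therefore held the highest Sdc1 ratio and the lowest Sdc2 ratio of the 3 lines.

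Both integrin beta chains were modestly higher. Itgb1, the beta-1 chain shared by most matrix-binding integrins, was 0.83 and 1.04 on the JA arrays, 0.44 and 0.81 on the JB arrays and 0.58 and 0.70 on the Amy arrays, with a mean of 0.73 ± 0.17 (adjusted p = 0.00719). The call was lost without JA (adjusted p = 0.0522). Its 2 clones differed, at 0.06 ± 0.13 and 1.40 ± 0.35, and the first clone alone did not pass (adjusted p = 0.691). Itgb6, an epithelial chain whose alphav-beta6 receptor activates TGF-beta, was highest in JB at 0.99 and 0.68 and lay between 0.28 and 0.47 in the other lines. Its mean of 0.51 ± 0.28 passed (adjusted p = 0.0361), but the call was lost without any one of JA, JB or Amy (adjusted p = 0.0846, 0.106 and 0.0967) and on the 3 arrays that carried the line in Cy3 (0.0525). It was also lost without the Cy3 array of JA (0.0597), the Cy5 array of JB (0.0543) or the Cy5 array of Amy (0.0557). Itgbl1, a secreted protein with integrin-like repeats, was lower on every array, between -1.35 and -0.24, with a mean of -0.66 ± 0.26 (adjusted p = 0.0153). That call was lost without JA (0.0781), Amy (0.0554) or the Cy5 array of JB (0.0504), and on the 3 arrays that carried the line in Cy3 (0.0553).

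The genes of the ADAM families were both lower. Adam19, a membrane-bound metalloprotease that sheds surface proteins, was -1.82 and -2.10 on the JA arrays, -1.79 and -2.27 on the JB arrays and -2.22 and -2.25 on the Amy arrays. The 2 JB values spanned those of JA, and the Amy values lay below both JA values and between those of JB. The mean was -2.07 ± 0.14 (adjusted p = 3.21e-04). Adamtsl4, a relative of the ADAMTS enzymes that lacks the protease domain and binds fibrillin microfibrils, was -2.71 and -2.73 on the JA arrays, -1.88 and -1.98 on the JB arrays and -2.34 and -2.48 on the Amy arrays. It was lowest in JA and highest in JB in both orientations, with a mean of -2.35 ± 0.40 (adjusted p = 7.16e-04).

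The 2 matrix metalloproteases differed. Mmp11 (stromelysin-3), known mainly from stromal cells around carcinomas, lay between -1.68 and -1.15 on the 6 arrays and had a mean of -1.34 ± 0.15 (adjusted p = 0.00116). Of its 3 clones, 2 stood at -2.07 and -1.70 and the third at -0.27. Mmp13, a collagenase, was 0.38 and 0.28 on the JA arrays, 0.34 and 0.37 on the JB arrays and -0.33 and -0.15 on the Amy arrays. Its mean of 0.15 ± 0.34 did not pass (adjusted p = 0.474; 95% interval -0.27 to 0.57).

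The metalloprotease inhibitors were higher in 2 of 3 cases. Timp2 was 0.92 and 1.16 on the JA arrays, 0.82 and 1.20 on the JB arrays and 0.78 and 0.95 on the Amy arrays. The lines overlapped, every array was above 0 and the mean was 0.97 ± 0.10, or 1.96-fold (adjusted p = 0.00248). Timp3, the TIMP that binds to the matrix and also blocks several ADAM proteases, was 1.502 and 1.17 on the JA arrays, 1.95 and 1.71 on the JB arrays and 0.69 and 0.66 on the Amy arrays. It was highest in JB and lowest in Amy, with a mean of 1.28 ± 0.58 (adjusted p = 0.00868). Its call was lost without JA (adjusted p = 0.0689) or with a spread for the pool (0.0588). Timp1 was 0.49 and 0.88 on the JA arrays, 0.21 and 0.81 on the JB arrays and -0.84 and -0.39 on the Amy arrays, so the sign differed between Amy and the other lines. Its mean was 0.19 ± 0.71 (adjusted p = 0.583; 95% interval -0.51 to 0.90). All 3 inhibitors thus had their lowest line mean in Amy, at 0.67 for Timp3, 0.86 for Timp2 and -0.61 for Timp1.

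Of the 3 serpins, 1 was higher, 1 was lower and 1 did not pass. Serpinb9, the inhibitor of granzyme B, had the highest mean of the 32 genes. It was 1.39 and 2.03 on the JA arrays, 0.98 and 0.86 on the JB arrays and 1.36 and 1.22 on the Amy arrays, with a mean of 1.31 ± 0.40, or 2.47-fold (adjusted p = 0.00374). JB was lowest in both orientations, and JA was highest with the lines in Cy5. With the lines in Cy3 the difference of JA from Amy was 0.04, while the 2 spots of the clone differed by up to 0.36. JA and Amy were thus not separated there. Serpini1 (neuroserpin), an inhibitor of tissue plasminogen activator, lay between -0.65 and -0.17 with a mean of -0.47 ± 0.07 (adjusted p = 0.0205), a call lost without JA (0.106), Amy (0.0834) or the Cy5 array of JB (0.0799) and on the 3 arrays that carried the line in Cy3 (0.0681). Serpine2 (protease nexin-1), an inhibitor of thrombin and urokinase, was above 0 in JA and Amy, between 0.34 and 0.56, and at -0.19 and -0.20 in JB. Its mean of 0.23 ± 0.37 did not pass (adjusted p = 0.302). Its 2 clones stood at 0.53 and -0.06, and the first alone passed (adjusted p = 0.0264).

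**Figure D2:**
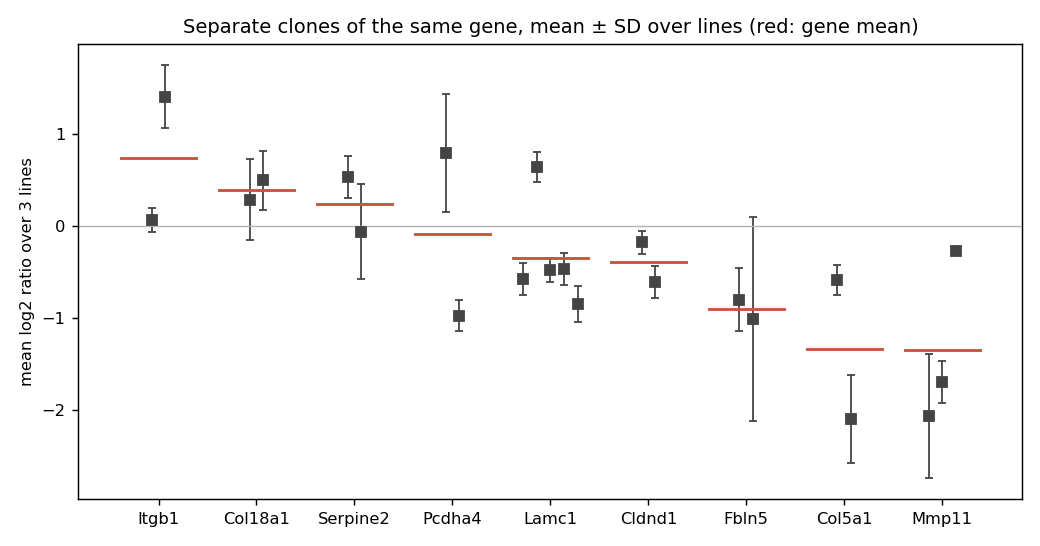
Mean log2 ratio over the 3 lines (vertical axis) of each separate clone, drawn as a square with its SD over lines, for the 9 genes measured by more than 1 clone; the red bar is the mean of the gene. The clones of Itgb1 stand at 0.06 and 1.40, those of Pcdha4 on opposite sides of 0, and 1 of the 5 Lamc1 clones lies above 0.

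Among the cadherins, Cdh13 was higher and the 2 others did not pass. Cdh13 (T-cadherin) is a cadherin held by a lipid anchor and without a cytoplasmic tail. It was 1.25 and 1.36 on the JA arrays, 0.88 and 0.95 on the JB arrays and 1.504 and 1.65 on the Amy arrays. Amy was highest and JB lowest in both orientations, and the mean was 1.27 ± 0.33 (adjusted p = 0.00302). Cdh16, a cadherin typical of kidney, lay between -0.28 and 0.00 with a mean of -0.17 ± 0.07 (adjusted p = 0.257). Pcdha4 had a mean of -0.09 ± 0.23 (adjusted p = 0.600). It belongs to a cluster of near-identical protocadherin genes that share exons, and its 2 clones had opposite signs, at 0.79 ± 0.64 and -0.98 ± 0.17, so no direction can be given for it.

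Claudins form the seal of tight junctions. Claudin-1 (Cldn1), the main claudin of stratified epithelia, was -0.61 and -0.49 for JA, -0.08 and -0.13 for Amy, and 1.42 and 1.25 for JB. JB was high on both arrays and the other lines lay at or below the pool. The mean over lines was 0.23 ± 0.99 and did not pass (adjusted p = 0.633; 95% interval -0.72 to 1.17). Cldn16, a claudin known from kidney, had a mean of -0.58 ± 0.27 (adjusted p = 0.0235), with -0.24 on the 3 arrays that carried the line in Cy3 and -0.92 on those with the line in Cy5. With the dye orientation as a block it did not pass (adjusted p = 0.103), nor without JA (0.0785), Amy (0.0970) or the Cy5 array of JA (0.255). Cldnd1, a membrane protein with a claudin-like domain, lay between -0.61 and -0.18 with a mean of -0.39 ± 0.13 (adjusted p = 0.0418). Leaving out any line or any single array ended that call, with adjusted p from 0.0573 to 0.167, as did arrays centred on the median (0.114).

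The lines were then compared with each other within each dye orientation, which removes the pool and the dye from the difference. Each line is 1 replicate, so no test was possible. A gene was taken to set a line apart where it differed by at least 1 on the log2 scale, in 1 direction, from both other lines in both orientations. This held for 4 genes in JB, 1 in Amy and 0 in JA. Over all features the shares were 1.99% for JB (1.3% higher, 0.696% lower), 0.501% for Amy (0.306% higher, 0.195% lower) and 0.362% for JA (0.0696% higher, 0.292% lower). In JB, Nid2 exceeded JA by 3.95 (lines in Cy3) and 4.63 (lines in Cy5) and Amy by 3.57 and 3.73. Cldn1 exceeded JA by 2.03 and 1.74 and Amy by 1.51 and 1.38. The 2 lower genes in JB were Sdc2, with differences of -1.63 and -1.94 from JA and -1.89 and -1.61 from Amy, and Fbn1, with -1.36 and -1.92 from JA and -1.27 and -1.20 from Amy. In Amy, Timp1 was lower than in JA by differences of -1.33 and -1.27 and than in JB by -1.05 and -1.20, and with arrays centred on the median it no longer reached a size of 1 throughout. In 6 of the 32 genes (Nid2, Cldn1, Sdc1, Serpine2, Timp1 and Mmp13) both arrays of 1 line lay above 0 and both arrays of another below, which held for 10.4% of all features.

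**Figure D3:**
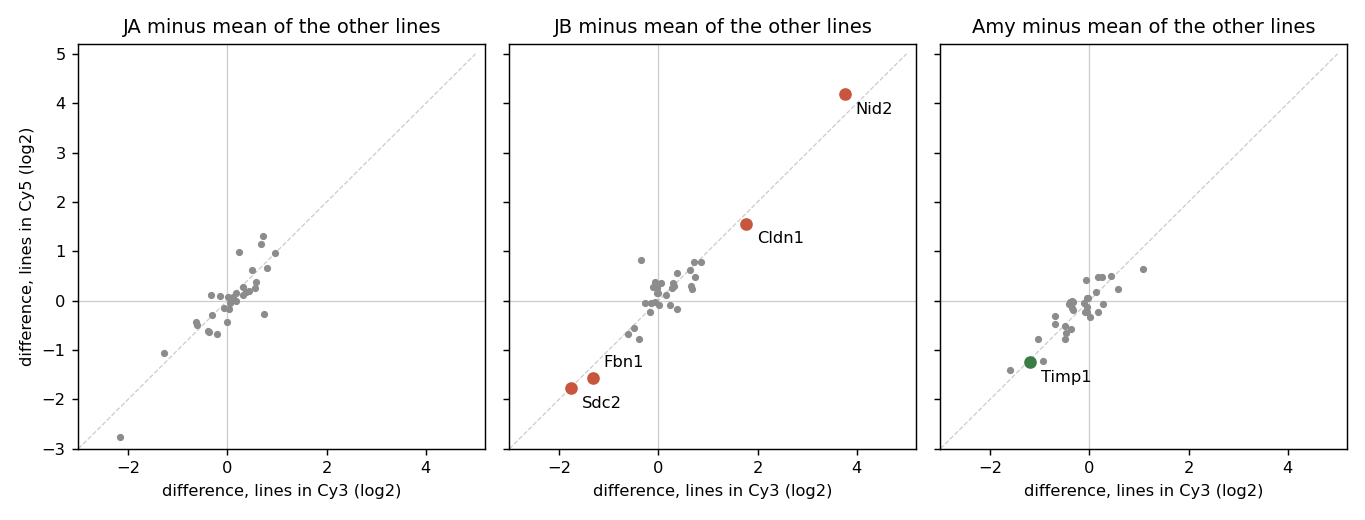
Difference of each line from the mean of the other 2 lines (log2) on the arrays with the lines in Cy3 (horizontal axis) and in Cy5 (vertical axis), 1 point for each of the 32 genes, with equal differences on the dashed diagonal. Named, coloured points differ by at least 1 from both other lines in both orientations, and Nid2 in JB lies farthest from 0.

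Genes outside the families but of the same pathways were described from lists. Their counts stand beside the shares of all features called, 53.5% in total, 20.7% higher and 32.8% lower. No list was tested against these shares. In the list of focal adhesion and integrin signaling, 10 of 29 genes were measured, 2 were higher, 4 lower and 4 did not pass, and the median was 0.0050. The kinase Src, which acts downstream of integrins, was higher at 1.08 ± 0.13 (adjusted p = 0.00198), and Csk, the kinase that holds Src inactive, was lower at -2.70 ± 0.72 (adjusted p = 0.00168). The adaptor paxillin (Pxn) was higher at 0.77 ± 0.37, a call lost without JA (adjusted p = 0.0927) and on the 3 arrays that carried the line in Cy3 (0.0502). The focal adhesion kinase gene Ptk2, at -0.41 ± 0.19 (adjusted p = 0.0467), lost its call when any line or any array was left out. The 4 lower genes include the actin cross-linker gene Actn4, at -0.71, whose arrays did not share a sign (-2.65 and 1.07 for Amy). Actn4 did not pass with the dye orientation as a block (adjusted p = 0.293), which left 3 lower. Tns1, the other lower gene, did not pass without JA (0.0502), Amy (0.0840) or the Cy3 array of JA (0.123). On the 3 arrays that carried the line in Cy5, Tns1 stood at -0.25 (0.247), with JA at 0.02.

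In the list of other matrix proteins and receptors, 12 of 26 were measured, of which 7 were lower and 5 missed the threshold (median -0.67). With the dye orientation as a block the collagen receptor gene Ddr1, at -0.33, passed as well (adjusted p = 0.0436). The lowest were decorin (Dcn), which binds collagen fibrils, at -8.999 ± 0.53, Ecm1 at -5.12 ± 0.35 and Sparc, a collagen-binding glycoprotein, at -4.18 ± 0.89. Among the 7 lower genes, the arrays of Ccn1, at -0.73, did not share a sign (0.08 and -1.74 for JA). Ccn1 did not pass without JA (adjusted p = 0.0564), with line as a random block (0.0678) or on the 3 arrays that carried the line in Cy3 (0.458). In the list of the plasminogen system and cathepsins, 9 of 17 were measured, with 1 higher, 5 lower and 3 not passing (median -1.25). The membrane-anchored metalloprotease inhibitor Reck was at -4.20 ± 0.23, the collagen-cleaving cathepsin K (Ctsk) at -3.84 ± 0.33, and the lysosomal protease gene Ctsl at -1.92 ± 0.88, which did not pass without JA (adjusted p = 0.0664). Cathepsin H (Ctsh) was higher at 1.00 ± 0.45. Reck thus stood low where Timp2 and Timp3 stood high.

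Collagen-modifying enzymes had 1 higher, 4 lower and 2 not passing of 7 measured from a list of 14 (median -0.92). The lysyl hydroxylase Plod2, which prepares collagen lysines for cross-linking, was at -4.26 ± 0.34, the procollagen protease enhancer Pcolce at -1.90 ± 0.20 and the prolyl hydroxylase subunit P4hb at -0.96 ± 0.22. The higher gene was the collagen-folding isomerase Ppib at 0.49 ± 0.23 (adjusted p = 0.0328). Ppib no longer passed without JA (0.149), Amy (0.0682), the Cy3 array of JA (0.0529) or JB (0.0528) or the Cy5 array of Amy (0.0739), nor in the 3 arrays that carried the line in Cy3 (0.0691). Partners of cadherins and claudins had 2 higher, 1 lower and 2 not passing of 5 measured from a list of 19 (median 0.27). The catenins Ctnna1 and Ctnnb1 were higher at 0.72 ± 0.40 and 0.62 ± 0.05 and the plakophilin Pkp2 was lower at -0.77 ± 0.23. Without JA none of these 3 passed (adjusted p = 0.0780, 0.0511 and 0.0576), without Amy Ctnna1 did not pass (0.0555), and the first clone of Ctnnb1 alone stood at 0.07 (0.627).

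**Figure D4:**
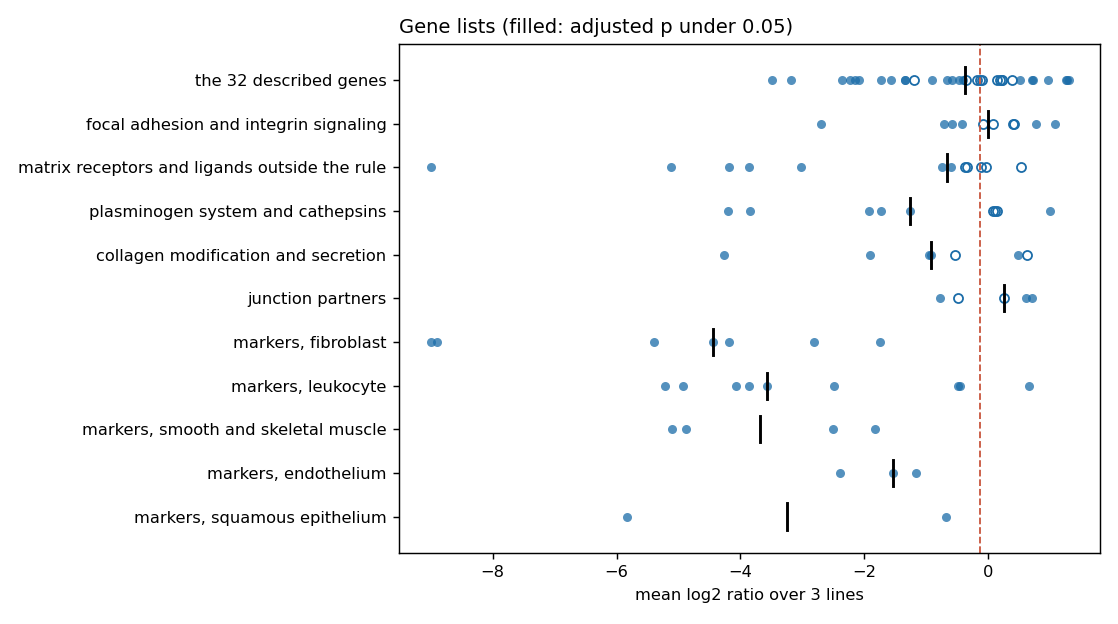
Mean log2 ratio over the 3 lines (horizontal axis) of each measured gene in the 32 described genes, 5 pathway lists and 5 marker lists; filled points passed the test, open points did not, black bars are list medians and the red dashed line is the median of all features at -0.12. The fibroblast markers lie farther below 0 than most of the described genes.

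Markers of other cell types are given beside these results, set against 32.8% of all features called lower. All 7 measured fibroblast markers were lower, with a mean over the list of -5.01 in JA, -5.33 in JB and -5.28 in Amy. Most of them are matrix genes and not independent of the results above. Col1a1, Col1a2 and Col3a1 matched the pattern and were left out by name, and Dcn and Sparc are in the list of other matrix proteins. The remaining markers, Pdgfra and Thy1, stood at -2.81 and -1.73. Of 9 leukocyte markers, 8 were lower and Tyrobp was higher, with list means between -2.83 and -2.58. The lower markers include Cd53, with a mean of -0.48, whose sign followed the dye. Every array with the line in Cy3 was above 0 for Cd53 (0.25 to 1.12). Every array with the line in Cy5 was below 0 (-2.52 to -1.10), so no direction can be given for this marker. All 4 measured muscle markers and all 3 endothelial markers were lower too, with list means of -3.84 to -3.23 and -1.76 to -1.64. Their part in the lower matrix genes was not tested. In such bulk RNA fewer cells of a type and less RNA per cell cannot be told apart. Only 2 squamous markers were measured, Lgals7 at -5.82 ± 1.01 and Cstb at -0.68 ± 0.46, and because the values are ratios without intensities, the presence of defining markers in the lines or in the pool was not checked. For the same reason the largest ratios, such as those of Sdc2 and Loxl1, may be bounds where 1 channel was dim, which these values cannot show.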

How the data were processed

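Per the labels, 6 arrays each compared 1 of 3 tumor lines with the normal pool. The deposited tables hold a log ratio for each spot of each array, read here as log2. Base 2 was taken because the lowest value was -12.7. Base, background correction and normalization are not given in the sources used here. Across features, the correlation between dye-swapped arrays was 0.844 (JA), 0.815 (JB) and 0.888 (Amy), so the signs were left as deposited. Array medians lay between -0.15 and -0.05, and the centring method is unknown.

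The 16128 spots form 8064 clones. Spots were averaged per gene symbol, or per clone where no single symbol was given, into 7180 features. All 32 described symbols matched RefSeq (GRCr8) by gene identifier; 23 genes had 1 clone, 7 had 2 and 2 had more. The duplicate spots of 2 of their 45 clones, in Fbln5 and Pcdha4, differed by over 1 on some array. The 2 arrays of a line were averaged, and limma 3.58.1 in R 4.3.3 (an intercept fitted by lmFit, then eBayes, two-sided) tested whether the average line differed from 0, with Benjamini-Hochberg adjustment over all features and a threshold of 0.05. Adjusted p-values are from this fit, except those given for an alternative, which are from limma under that alternative. The p-values measure only the spread between these lines, with the variance of each gene moderated toward a value estimated from all features. The script was tested on simulated data. The replicate number is the dye orientation per the labels; the difference between orientations correlated at 0.526 to 0.613 between lines, so the numbers pair the arrays, and a fit with the replicate block was run.

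Named genes were the members with the highest and lowest means among those that passed with 1 sign on all 6 arrays (12 per direction), up to 3 per direction in each family, genes that set a line apart, members that completed a family, and up to 3 per direction from each pathway list. Lgals7, Cstb, Tyrobp, Cd53, Pdgfra, Thy1, Actn4, Tns1, Ddr1, Ccn1 and Cst3 were named after their values were seen. The genes, families and lists were chosen with earlier results of these data known. Alternatives covered array centring, scaling and quantile normalization, line as a random block, the pool's spread, variance moderation, single dye orientations, lines and arrays left out, clones, a filter on dye disagreement and thresholds.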

Additional observations from a re-analysis of the deposited data

Results flagged for a closer look

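In 6 of the 32 genes, against 10.4% of all features, both arrays of 1 line lay above 0 and both arrays of another below. These differences between lines were not tested, since each line is 1 replicate. Set against the mean of the other lines, JB was higher by 3.97 (log2) in Nid2, by 1.67 in Cldn1 and by 0.75 in Sdc1, and its difference in Serpine2 was -0.64. Amy differed by -1.21 in Timp1 and by -0.58 in Mmp13. Nid2, Cldn1, Sdc1, Timp1 and Mmp13 were each measured by 1 clone, and the 2 clones of Serpine2 stood at 0.53 and -0.06.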

How the results depend on the processing

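No called gene among the 32 changed sign in any of the alternatives run, and 12 of the 22 called genes (3 higher, 9 lower) passed in every alternative fit at the 0.05 threshold that moderated the variances. These were Serpinb9, Cdh13 and Timp2, and Adam19, Adamtsl4, Col14a1, Col5a1, Gpc3, Loxl1, Loxl2, Mmp11 and Sdc2. Only the first clone of a gene was fitted alone, so the third clone of Mmp11, at -0.27, was not tried by itself. The counts of 7 higher and 15 lower became 3 and 9 with a spread for the pool and 1 and 5 without moderation. With a mean of at least 1 in size also required, 3 were higher. Leaving out lines or arrays gave 4 to 7 higher and 10 to 15 lower. For none of these alternatives was the share of all features computed. With the dye orientation as a replicate block, 7 were higher and 15 lower, of which 21 genes were among the reported 22; it changed no other call of the 32 than those of Cldn16 and Lamc1. The first clone of Pcdha4 alone passed at 0.79, against the sign of its mean. Of the pathway genes, Actn4 turned to 0.28 on the 3 arrays that carried the line in Cy5 and to 0.049 with its first clone, and Cst3 stood at -1.51 with its first clone and at -1.03 with the median over clones, a choice made after seeing the data. At a size of 0.5, 3 genes set Amy apart. At 1.5, 2 set JB apart and 0 Amy, and with centred arrays 0 set Amy apart. The shares of all features under these settings were not computed, so these counts have no background beside them. The cause of these changes was not tested. No spot intensities were used, so signal over background is unknown.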
